A study of Mus musculus with 72 samples.

Results

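The hearts of SAMP1 mice that had been on their diets for 14 months were set against the hearts of mice on the same diets for 6 months. They are 18 of the 72 arrays of a study of coenzyme Q10 feeding, chosen by their labelled tissue and duration, 9 hearts at each duration. SAMP1 is a senescence-accelerated mouse strain, and all the mice were females that started at 4 weeks of age and were kept 3 to 6 per cage. The 6 groups of 3 mice were hearts after 14 months on Q10 (the oxidised form of coenzyme Q10), on QH2 (the reduced form) and on a control diet, at a total age of 15 months, and hearts after 6 months on the same 3 diets, at a total age of 7 months. Both forms were eaten at about 500 mg per kg of body weight a day. Duration of feeding and age advance together in this design and cannot be told apart.

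Coenzyme Q carries electrons from the first complexes of the mitochondrial respiratory chain to the third, and the heart, which beats without rest, depends on that chain and on the oxidation of fatty acids more than most organs. The working heart muscle cell is filled with sarcomeres, the repeating units of actin and myosin, and under load or with age it is known to bring back genes of the fetal heart, such as those of the natriuretic peptides and of skeletal actin. The tissue also holds fibroblasts, endothelium, smooth muscle and immune cells. RNA was taken from the tissue as a whole, so fewer cells of a type and less RNA per cell cannot be told apart.

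Each array gave 1 fluorescence signal per probe set. Mean signal per array was 149, 202 and 279 (lowest, median and highest of 9) at 14 months, against 108, 120 and 138 at 6 months. The Cre spike-in, a control RNA that does not come from the mouse, read 7398, 8674 and 9570 at 14 months, against 5067, 5628 and 6763 at 6 months. In each of these measures the durations did not overlap. Any batch of hybridisation or scanning that ran with duration therefore cannot be told apart from duration, and the arrays were brought to 1 common distribution before any test. The ratio of 3' to 5' signal of Actb, a sign of RNA quality, was 1.78 to 2.22 at 14 months and 1.68 to 2.12 at 6 months. The tissue label held: Myh6, Myl2 and Tnni3, which encode cardiac myosin and troponin chains, read at least 7967 in every heart array and at most 26.8 in every array of the other tissues.

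Among the hearts at 14 months 4 stood apart from the others. Hearts 2 and 3 on Q10 had a summed signal of 2366 and 6867 over 9 B cell markers, while the other 7 hearts at 14 months lay between 166 and 403 and the 9 hearts at 6 months between 118 and 387. Hearts 2 and 3 on QH2 had 33670 and 13230 over 14 markers of atrial muscle, while the other 7 hearts at 14 months lay between 5265 and 8066 and the hearts at 6 months between 6114 and 12140. Results that rest on these arrays are given with and without them.

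**Figure D1:**
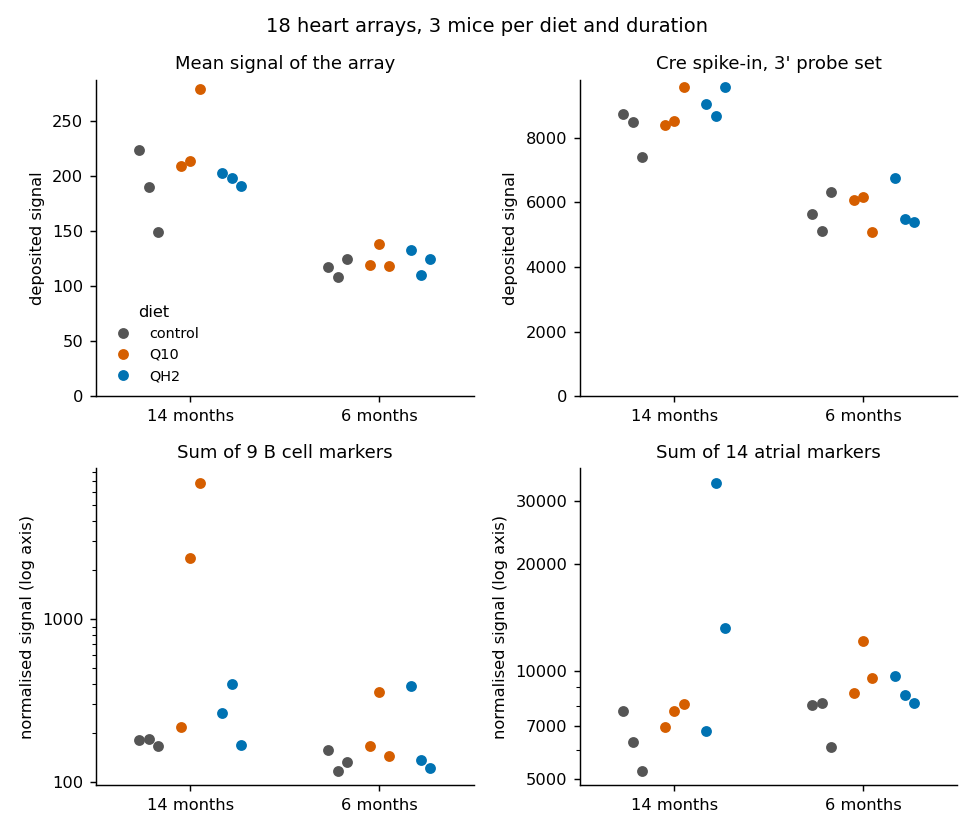
Each point is 1 heart array, with hearts at 14 months on the left of each panel, hearts at 6 months on the right and diets in colour. The panels show mean deposited signal, the deposited signal of the Cre spike-in, and, on log axes, the summed normalised signal of the B cell and of the atrial markers. All 9 arrays at 14 months lie above all 9 at 6 months in both upper panels, while 2 hearts on Q10 at 14 months (2366 and 6867) and 2 on QH2 (33670 and 13230) stand out in the lower ones.

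Of 27022 probe sets tested, 4790 (17.7%) differed between 14 and 6 months with diet as a covariate, at an adjusted p under 0.05 by limma, 2365 of them higher and 2425 lower at 14 months. Within a diet, 3 hearts against 3, 2874 probe sets (10.6%) were called on Q10, 619 (2.29%) on QH2 and 554 (2.05%) on control diet. A set of 130 probe sets (0.481%) was called in the same direction within every diet, 65 higher and 65 lower, and stands for 109 genes. The 9 hearts at 14 months did not overlap the 9 at 6 months in 610 probe sets (2.26%). Counted by gene, with each gene standing by its brightest probe set, 1298 of 13408 genes rose and 1093 fell (17.8% called), and the median log2 change of all 13408 was 0.04. Changes below are log2 of 14 over 6 months over all diets with the standard error (SE), on quantile-normalised signal plus 1, and all adjusted p are from limma.

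The counts of called probe sets rested in part on the normalisation and on the arrays that stood apart. With each array scaled to a common median in place of the quantile step, 1830 probe sets were higher and 3074 lower over all diets. The 2 settings differed most for the brightest probe sets: the 234 with a mean signal over 5000 had a median log2 change of -0.01 after the quantile step and of -0.27 after median scaling, where the median of all was 0.03 and -0.04. On the values as deposited 20919 of 20961 called probe sets were higher, at a median change of 0.80. Below, changes of single genes with median scaling are relative to the median change of all tested probe sets, and list medians are not. Without the 4 arrays that stood apart 3943 probe sets were called over all diets, and the count within Q10 was 772 in place of 2874. The set called within every diet was 277 in place of 130, with 55 higher and 222 lower in place of 65 and 65. With only hearts 2 and 3 on Q10 at 14 months left out, the count within Q10 was lower still. The fits without all 4 arrays hold 1 heart on Q10 and 1 on QH2 at 14 months, each of which is assumed to vary like the hearts of the other groups.

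Genes called within every diet included Laptm4a, Rtn4 and Pik3r1 among those that fell and AY036118, Serpina1b and Fabp5 among those that rose. Laptm4a, which encodes a membrane protein of lysosomes, read 885, 1091 and 1167 (lowest, median and highest) in hearts at 14 months, against 1960, 2178 and 2405 at 6 months. It fell by 1.07 ± 0.06 (SE; adjusted p = 5.7e-11), by 0.98 on control diet, 1.22 on Q10 and 1.02 on QH2. Rtn4, of the reticulons that shape tubules of the endoplasmic reticulum, read 85.8, 113 and 132 at 14 months, against 355, 378 and 427 at 6 months. That probe set fell by 1.81 ± 0.08 (adjusted p = 7.7e-12), but another of the 5 of this gene was called higher, so the probe sets of Rtn4 disagree. Pik3r1, the regulatory subunit of phosphoinositide 3-kinase in insulin signalling, read 15.7, 23.9 and 35.4 at 14 months, against 64.6, 88.8 and 116 at 6 months. It fell by 1.83 ± 0.13 (adjusted p = 1.0e-08), and 3 of its 4 tested probe sets were called lower.

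Of the genes that rose, AY036118, a transcript known by its accession-like symbol alone, read 1876, 2167 and 2488 at 14 months, against 922, 1131 and 1361 at 6 months, a change of 0.94 ± 0.07 (adjusted p = 3.2e-08). Serpina1b, a serine protease inhibitor of the alpha-1-antitrypsin family, read 58.7, 99.5 and 192 at 14 months, against 17.1, 31.5 and 53.8 at 6 months, and rose by 1.59 ± 0.17 (adjusted p = 4.0e-06) with both its probe sets. Fabp5, a carrier of fatty acids in the cytosol, read 1187, 1364 and 1994 at 14 months, against 814, 924 and 978 at 6 months (change 0.62 ± 0.07, adjusted p = 5.3e-06). Over all diets, but not within every diet, Glul, glutamine synthetase, fell, at 444, 539 and 617 at 14 months, against 661, 747 and 978 at 6 months (-0.56 ± 0.08, adjusted p = 5.0e-05). None of these 4 overlapped between the durations.

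**Figure D2:**
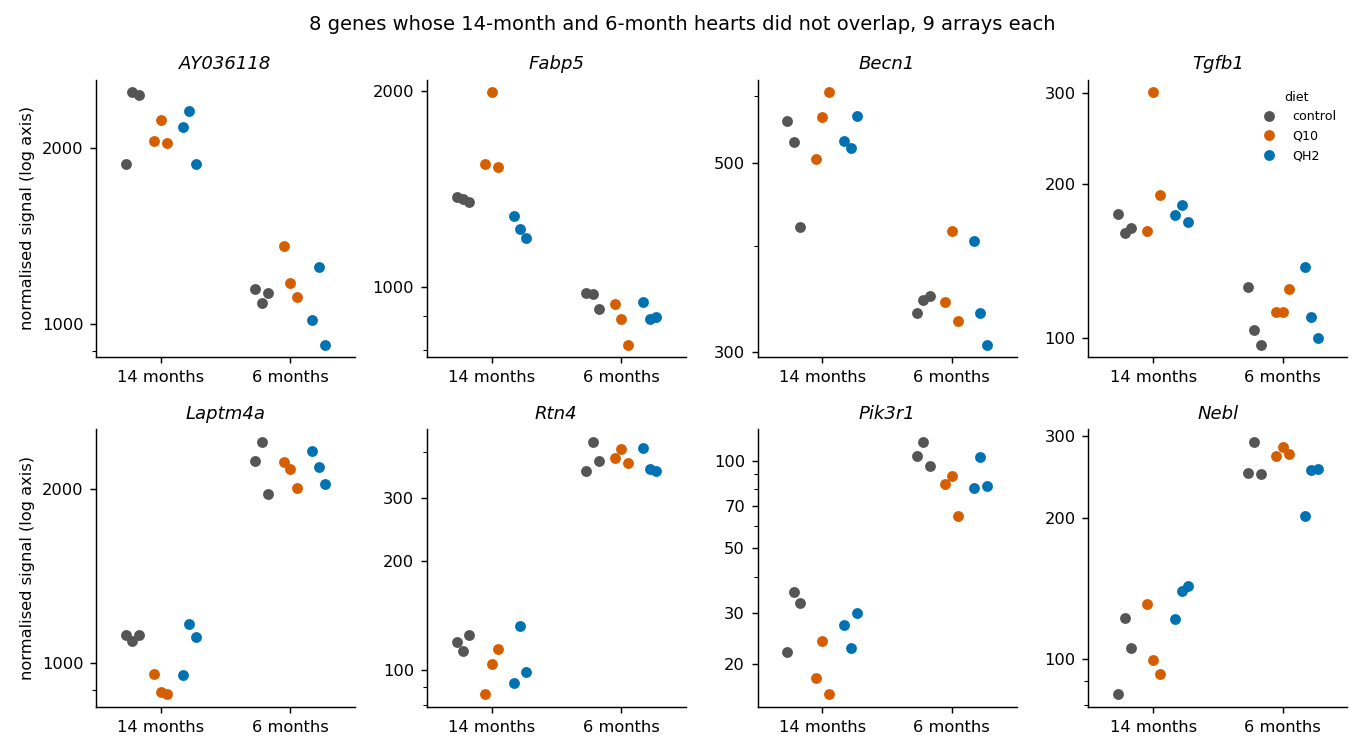
Each panel shows normalised signal on a log axis for 1 gene, with 1 point per heart, hearts at 14 months left of hearts at 6 months and diets in colour. The 4 genes of the upper row lie higher and the 4 of the lower row lower at 14 months with no overlap, Laptm4a for example between 885 and 1167 at 14 months and between 1960 and 2405 at 6 months.

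The greatest falls over all diets, among probe sets of a mean signal of at least 50, ran from -1.83 in Pik3r1 to -1.28 in Kpna3, an importin that carries cargo into the nucleus. Serinc1, which takes part in the placing of serine into membrane lipids, read 117, 244 and 518 at 14 months, against 559, 706 and 943 at 6 months (-1.60 ± 0.22, adjusted p = 4.5e-05). Zdhhc5, an enzyme that attaches palmitate to proteins, read 46.1, 60.4 and 93.2 at 14 months, against 141, 158 and 215 at 6 months (-1.36 ± 0.13, adjusted p = 9.4e-07). Zfpm2 (FOG2), a partner of GATA4 in heart development, read 22.6, 41.7 and 54.4 at 14 months, against 75.5, 92.4 and 114 at 6 months (-1.28 ± 0.15, adjusted p = 6.6e-06). The durations did not overlap in these 3, nor in Gtpbp2, a GTP-binding protein (-1.28 ± 0.14), or Kpna3 (-1.28 ± 0.17).

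Malat1, a long RNA that stays in the nucleus, fell by 1.36 ± 0.15 (adjusted p = 4.1e-06), with 6 of its 7 probe sets called lower. Spop, the adaptor of a ubiquitin ligase, fell by 1.41 ± 0.20 with all 3 of its probe sets, and Nr1d2, a repressor of the circadian clock, by 1.36 ± 0.24. Gja1, which encodes connexin 43, the main gap junction protein of ventricular muscle, read 144, 462 and 1176 at 14 months, against 782, 1178 and 1774 at 6 months (-1.55 ± 0.30, adjusted p = 0.0012). It was the only one of 6 Gja1 probe sets that was called.

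Several of the greatest rises rested in part on a few hearts. Ms4a1 (CD20), Blk and Cd79a, all of B cells, led the rule's list at 2.12, 2.06 and 2.01. Cd79a read 27.7, 253 and 614 in the 3 hearts on Q10 at 14 months and 15.0 to 34.0 in the other 6 at 14 months, against 1.76, 10.9 and 35.2 (lowest, median and highest) at 6 months. Without the 4 arrays that stood apart Ms4a1 was at 1.14 (adjusted p = 0.21), Blk at 1.36 (0.17) and Cd79a at 1.30 (0.056), so none of the 3 was called. S100a8, a calcium-binding protein of neutrophils, read 7.30, 32.6 and 381 at 14 months, against 0.24, 12.5 and 17.9 at 6 months, and likewise had adjusted p = 0.085 without the 4 arrays. H2-D1, an MHC class I gene, rose by 1.27 ± 0.29, with 476 as its highest value at 14 months and 63.2 at 6 months, and changed by 0.73 (adjusted p = 0.019) without them.

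Other large rises were spread over the hearts. Vgll2, a cofactor of TEAD transcription factors known from skeletal muscle, read 41.5, 64.9 and 108 at 14 months, against 5.66, 28.0 and 38.3 at 6 months (1.70 ± 0.28, adjusted p = 2.7e-04). Egln3, an oxygen-sensing prolyl hydroxylase that marks hypoxia-inducible factors for decay, read 274, 325 and 461 at 14 months, against 58.7, 150 and 227 at 6 months (1.30 ± 0.19, adjusted p = 9.7e-05). Its second probe set was also called, at 0.52. Mcm4, a subunit of the helicase that opens DNA for replication, read 51.2, 70.4 and 131 at 14 months, against 23.2, 26.2 and 44.1 at 6 months (1.27 ± 0.17, adjusted p = 4.0e-05), with 1 of its 2 probe sets called. These 3 did not overlap between durations. Apol11b, of the apolipoprotein L family, rose by 1.69 ± 0.27 with both probe sets, and Pum2, a repressor of translation that binds RNA, by 1.21 ± 0.11, although its other 2 probe sets were called lower.

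Of 24 sarcomere genes 2 rose and 4 fell, with a median change of 0.04 (also 0.04 over all genes, of which 9.68% rose and 8.15% fell). Nebl, nebulette of the Z-disc, read 84.2, 122 and 143 at 14 months, against 202, 255 and 291 at 6 months (-1.17 ± 0.10, adjusted p = 2.8e-07), and all 3 of its probe sets fell, the brightest by 0.35 ± 0.06. Myoz2, a Z-disc protein that restrains calcineurin, read 6577, 7252 and 7597 at 14 months, against 8037, 8174 and 8713 at 6 months (-0.20 ± 0.03). Csrp3, the muscle LIM protein, read 8558, 8678 and 9227 at 14 months, against 9369, 9792 and 10350 at 6 months (-0.15 ± 0.03). In each of these the durations did not overlap. Myom2 of the M-band changed by -0.30 ± 0.07 with all 3 probe sets. Tnnt2, cardiac troponin T, rose by 0.19 ± 0.03 after the quantile step but had -0.18 with median scaling (adjusted p = 0.11), and its 3 probe sets included 1 called lower. Myh6, the main myosin heavy chain of the adult mouse heart, read 13440 to 14740 at 14 months and 13180 to 14020 at 6 months (0.06 ± 0.03, adjusted p = 0.14). With median scaling the sarcomere list had a median of -0.30, and all genes had -0.01.

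The fetal and hypertrophy genes went in both directions, with 2 of 16 higher, 3 lower and a median of 0.01. Fhl2, a LIM protein that binds titin and represses hypertrophic signalling, read 7597, 8296 and 9792 at 14 months, against 6136, 6426 and 7153 at 6 months (0.37 ± 0.05, adjusted p = 1.6e-05), with 0.37 on control diet, 0.35 on Q10 and 0.40 on QH2. Fhl2 was 0.15 with median scaling (adjusted p = 0.10). Ankrd1, a stress-responsive ankyrin repeat protein of the sarcomere and nucleus, read 2409, 3661 and 6442 at 14 months, against 5856, 7412 and 9522 at 6 months, and fell by 0.86 ± 0.14 (adjusted p = 1.7e-04). Its change was -0.68 on control diet, -1.38 on Q10 and -0.53 on QH2. Acta1, skeletal alpha-actin, read 2194, 2943 and 3936 at 14 months, against 2622, 4149 and 6136 at 6 months (-0.51 ± 0.12, adjusted p = 0.0068), and had -0.31 (adjusted p = 0.11) without the 4 arrays. Nppb, the B-type natriuretic peptide, had -0.36 ± 0.11 (adjusted p = 0.030), a call kept in 12 of the 18 fits that leave out 1 array. Nppa, the atrial peptide, ranged from 1510 to 11130 at 14 months and from 1996 to 8137 at 6 months, and Myh7, the fetal myosin, from 525 to 5704 at 14 months and from 413 to 2178 at 6 months. Neither passed the test (-0.13 ± 0.21 and 0.41 ± 0.30). Nppa is also among the atrial markers by whose sum hearts 2 and 3 on QH2 at 14 months stood apart.

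Several of these muscle genes carry a CArG box, the binding motif of serum response factor, just before their start of transcription. The windows below are shown because their genes moved in opposite directions, Fhl2 up and Nebl and Acta1 down. They are from RefSeq on GRCm38.p6, all on the minus strand and printed 5′ to 3′ along the gene, with the box in capitals.
Fhl2, chr1:43196823-43196882: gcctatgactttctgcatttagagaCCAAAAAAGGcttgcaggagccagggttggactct
Fhl2, second start, chr1:43163962-43164017: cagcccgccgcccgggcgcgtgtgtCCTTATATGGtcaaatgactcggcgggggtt
Acta1, chr8:123894814-123894873: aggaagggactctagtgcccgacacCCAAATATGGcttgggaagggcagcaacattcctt
Nebl, chr2:17462984-17463043: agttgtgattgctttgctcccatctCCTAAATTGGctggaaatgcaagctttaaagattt
The boxes begin 96, 31, 73 and 162 bases before the annotated start, in the order shown. In the 250 bases before a start, a CArG box was found in 3 of the 14 fetal and hypertrophy genes with a promoter in the table (Fhl2, Acta1 and Fhl1), in 5 of 22 sarcomere genes and in 146 of the 10763 tested genes with a promoter (1.36%). The motif reads the same on both strands, and the genes to search were chosen after their values were seen. None of 12 smooth muscle genes had one in this window.

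Of 18 calcium genes 2 rose and 3 fell (median -0.06). Cacnb2, a subunit of the L-type calcium channel, read 232, 345 and 440 at 14 months, against 443, 527 and 665 at 6 months (-0.68 ± 0.11, adjusted p = 2.8e-04), without overlap and with both probe sets lower. Camk2d, the main calmodulin kinase of the heart, changed by -0.35 ± 0.08. Pln, phospholamban, the inhibitor of the calcium pump, was called higher at 0.16 ± 0.04, but had -0.19 with median scaling and 2 of its 3 probe sets were called lower. The pump itself, Atp2a2, read 11240 to 12160 at 14 months and 11990 to 12310 at 6 months by its brightest probe set (-0.05 ± 0.03, adjusted p = 0.23), while 2 of its 5 probe sets were called lower, at -0.19 ± 0.05 and -0.33 ± 0.11. Of 19 potassium and sodium channel genes, counted by their brightest probe sets, 3 rose and 4 fell. Abcc9, among those that fell, was also lower within every diet by another probe set (-0.57 over all diets, adjusted p = 9.4e-07). Kcnk3, the background potassium channel TASK-1, rose by 0.34 ± 0.08, and Kcnd2, a channel of the transient outward current, and Gjc1, connexin 45, had -0.36 ± 0.10 and -0.59 ± 0.17. Without the 4 arrays 3 channel genes were higher and 0 lower, so that all 4 lower calls were lost (adjusted p = 0.061 for both Kcnd2 and Gjc1).

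Of 24 genes of glucose uptake and glycolysis 8 rose and 2 fell (median 0.10), and of 29 genes of fatty acid uptake and oxidation 1 rose and 4 fell (median -0.09). Pfkl, a phosphofructokinase at the committed step of glycolysis, read 661, 804 and 1054 at 14 months, against 321, 490 and 631 at 6 months (0.73 ± 0.10, adjusted p = 4.6e-05). Hk1, the hexokinase that traps glucose in the cell, read 1059, 1146 and 1382 at 14 months, against 742, 810 and 982 at 6 months (0.50 ± 0.06, adjusted p = 1.6e-05). Tpi1, triosephosphate isomerase, rose by 0.28 ± 0.04, and Slc2a4 (GLUT4), the insulin-responsive glucose transporter, by 0.39 ± 0.05. The enzymes that fell were Pgk1, phosphoglycerate kinase (-0.44 ± 0.06, 1 of 3 probe sets), and Eno3, muscle enolase (-0.21 ± 0.06).

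Of fat oxidation, Hadh, a dehydrogenase of beta-oxidation, read 3443, 4728 and 5284 at 14 months, against 5704, 6199 and 7008 at 6 months (-0.46 ± 0.06, adjusted p = 5.7e-05), without overlap. Hadhb of the trifunctional protein had -0.30 ± 0.04, with 1 of its 3 probe sets called higher and 1 lower, and Etfdh, which passes electrons from fat oxidation to coenzyme Q, had -0.18 ± 0.04. Of the transcriptional regulators, Esrra, the estrogen-related receptor that drives mitochondrial genes, rose by 0.39 ± 0.08, while Ppara had 0.28 ± 0.11 (adjusted p = 0.085) and Ppargc1a -0.12 ± 0.18. Fabp4, a fatty acid carrier of endothelium and fat cells, rose by 0.37 ± 0.06. Median scaling moved the median of the fat oxidation list to -0.23 and of the glycolysis list to -0.02.

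In the citric acid cycle 3 of 23 genes rose and 6 fell (median -0.05). Sdha, the flavoprotein of succinate dehydrogenase, read 3583, 4382 and 4998 at 14 months, against 5272, 5588 and 6031 at 6 months (-0.36 ± 0.05, adjusted p = 4.7e-05), with 2 of 3 probe sets lower. Sdhc, the membrane anchor of the same enzyme, had 0.39 ± 0.06 and Sdhd, another anchor, had -0.37 ± 0.05. The 2 probe sets of Sdhd were called in opposite directions. Idh3a, the isocitrate dehydrogenase of the cycle, had -0.34 ± 0.06, and Suclg1, of succinyl-CoA ligase, 0.32 ± 0.05.

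Respiratory chain genes were called in both directions, 4 higher and 4 lower of 33 in complex I and 8 higher and 4 lower of 36 in complexes III to V, with medians of -0.01 and 0.01. With median scaling these medians were -0.21 and -0.26, where all genes had -0.01. Ndufa13 and Ndufs1 of complex I had -0.33 ± 0.04 and -0.31 ± 0.05, and Ndufa6 of the same complex 0.27 ± 0.04. Cox6a1, of cytochrome oxidase, read 2563, 2615 and 3137 at 14 months, against 1770, 2070 and 2275 at 6 months (0.40 ± 0.05, adjusted p = 3.1e-05). Cycs, cytochrome c, and Atp5pb, of ATP synthase, had 0.33 ± 0.03 and 0.33 ± 0.04 after the quantile step, and 0.02 (adjusted p = 0.89) and 0.10 (0.31) with median scaling. Among 12 genes of coenzyme Q synthesis none rose and 3 fell (median -0.10): Coq10b, a carrier that binds coenzyme Q (-0.47 ± 0.10), Coq8a, an atypical kinase of the pathway (-0.28 ± 0.07), and Coq5, its methyltransferase (-0.24 ± 0.07). Coq5 was not called without heart 1 on control diet at 14 months. Coq8a and Coq5 were not called without the 4 arrays (adjusted p = 0.13 and 0.18), when 2 genes of the list rose and 1 fell. Coq7, which makes the last hydroxylation, had 0.19 ± 0.08 (adjusted p = 0.082), and Coq9 -0.06 ± 0.05.

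**Figure D3:**
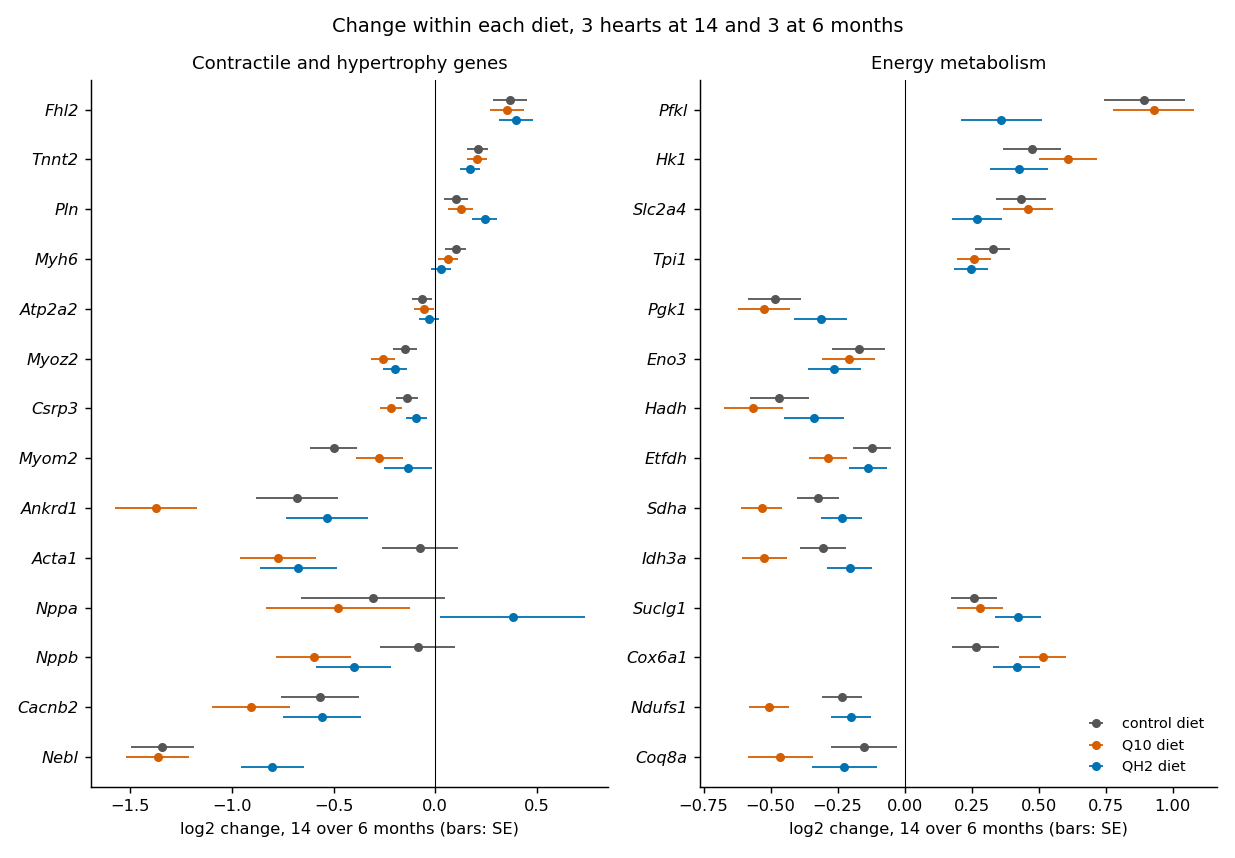
Points are log2 changes of 14 over 6 months within each diet, 3 hearts against 3, with bars of 1 SE, for contractile and hypertrophy genes on the left and genes of energy metabolism on the right. Fhl2, Pfkl and Hk1 lie above 0 and Nebl, Ankrd1 and Hadh below 0 on every diet, for example Ankrd1 at -0.68 on control diet, -1.38 on Q10 and -0.53 on QH2.

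Of 20 genes of muscle ubiquitin ligases and autophagy 7 rose and 2 fell (median -0.02), of 18 lysosomal genes 5 rose and 2 fell (median 0.18), and of 31 proteasome genes 3 rose and 9 fell (median -0.11). Becn1, which starts autophagosome formation, read 421, 531 and 606 at 14 months, against 306, 344 and 416 at 6 months (0.61 ± 0.07, adjusted p = 8.7e-06), by 1 of its 5 probe sets. Map1lc3a, an LC3 protein of the autophagosome membrane, read 4138, 4720 and 5345 at 14 months, against 3290, 3623 and 4112 at 6 months (0.35 ± 0.05, adjusted p = 1.3e-04), with both probe sets. Atg7, the enzyme that activates LC3 for conjugation, had 0.64 ± 0.12 and Trim63 (MuRF1), the ubiquitin ligase of muscle atrophy, 0.33 ± 0.06. Foxo3, a transcription factor that turns on atrophy genes, was lower at 319, 358 and 452 at 14 months, against 460, 528 and 686 at 6 months (-0.57 ± 0.07, adjusted p = 1.9e-05). This was 1 of its 3 probe sets, and another averaged 281 at both durations.

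Hexa, a lysosomal hexosaminidase, and Ctsz, a lysosomal protease, rose by 0.33 ± 0.05 and 0.75 ± 0.14, and Lamp2, the lysosomal membrane protein, fell by 0.31 ± 0.07. Among proteasome genes Psmd6, Psmc1 and Psmc6, subunits of the regulatory cap, fell by 0.24 ± 0.05, 0.27 ± 0.06 and 0.23 ± 0.05, and Psmc5 of the same cap rose by 0.25 ± 0.07. Without the 4 arrays 3 proteasome genes were higher and 6 lower. Of 30 cytosolic ribosome genes 8 rose and 2 fell (median 0.08). Their summed signal was 126600 and 130400 in hearts 2 and 3 on Q10 at 14 months and 108500 to 111800 in the other 7, against 105000 to 112000 at 6 months. Within a diet 9 were called higher and 1 lower on Q10 and 0 in either direction on QH2 and on control diet, and without the 4 arrays 6 were higher and 3 lower (median 0.03). Among all 13408 genes 792 were called higher and 704 lower within Q10, 178 and 112 within QH2 and 157 and 103 within control diet. Rpsa, of the small subunit, was among the ribosome genes that rose over all diets, at 0.33 ± 0.06.

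Of 29 heat shock chaperones 3 rose and 4 fell (median -0.06), and of 26 genes of the unfolded protein response 2 rose and 5 fell (median 0.03). Cryab, alpha B-crystallin, had 0.33 ± 0.05 and Hspb7 0.29 ± 0.05, both of them abundant and not called with median scaling (0.04 and 0.07, adjusted p = 0.76 and 0.61). Dnajb5, a co-chaperone, read 442, 547 and 592 at 14 months, against 295, 383 and 437 at 6 months (0.53 ± 0.08, adjusted p = 6.0e-05). Hspe1, the mitochondrial co-chaperonin, fell by 0.39 ± 0.07. Of the endoplasmic reticulum, Dnajb11 read 133, 169 and 188 at 14 months, against 191, 215 and 240 at 6 months (-0.39 ± 0.08, adjusted p = 0.0019), and Pdia3 and Manf had -0.33 ± 0.07 and -0.51 ± 0.12.

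Of 31 antioxidant genes and targets of NRF2 8 rose and 3 fell (median 0.02), and without the 4 arrays 5 were higher and 4 lower. Cat, catalase, read 1222, 1549 and 1591 at 14 months, against 887, 1012 and 1361 at 6 months (0.52 ± 0.07, adjusted p = 5.4e-05), with both probe sets. Gpx3, the secreted glutathione peroxidase, rose by 0.65 ± 0.13 and Sod1, the cytosolic superoxide dismutase, by 0.20 ± 0.05. Prdx3, the mitochondrial peroxiredoxin, fell by 0.29 ± 0.06. Sod1 had adjusted p = 0.056 with median scaling.

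Of 15 smooth muscle and pericyte markers 7 rose and 1 fell, with a median of 0.30 and 14 of 15 above 0. The marker that fell, Abcc9, was also lower within every diet by another probe set. The median was 0.30 on control diet, 0.44 on Q10 and 0.11 on QH2, and without the 4 arrays 7 genes were higher and 0 lower. Myh11, smooth muscle myosin, read 83.7, 102 and 117 at 14 months, against 47.7, 69.1 and 81.8 at 6 months (0.65 ± 0.12, adjusted p = 7.4e-04). Tagln, transgelin, read 122, 141 and 215 at 14 months, against 89.4, 100 and 121 at 6 months (0.56 ± 0.11, adjusted p = 0.0010). The durations did not overlap in either. Mylk, the kinase that triggers smooth muscle contraction, had 0.57 ± 0.12, Notch3, the receptor that maintains it, 0.51 ± 0.12, and Rgs5 of pericytes 0.30 ± 0.08.

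Of 25 endothelial genes 5 rose and 2 fell (median 0.19), with medians of 0.24 on control diet, 0.48 on Q10 and -0.20 on QH2. Their summed signal was 24550 in heart 2 on Q10 and 14600 to 18700 in the other 8 hearts at 14 months, against 14420 to 16520 at 6 months. Without hearts 2 and 3 on Q10 3 were higher and 2 lower, and without all 4 arrays 9 were higher and 2 lower. Eng, endoglin, and Egfl7, a secreted factor of endothelium, rose by 0.60 ± 0.13 and 0.49 ± 0.12. Aqp1, the water channel of capillaries, read 530, 1229 and 1731 at 14 months, against 1573, 1915 and 2156 at 6 months (-0.76 ± 0.15, adjusted p = 0.0016), and had -0.41 without the 4 arrays.

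Of 19 collagens 1 rose and 1 fell (median -0.11), and of 38 other matrix genes 6 rose and 3 fell (median 0.15). Col1a1 had -0.40 ± 0.19 (adjusted p = 0.15) and Col3a1 -0.33 ± 0.16 (0.15), both fibrillar collagens of scar. Tgfb1, the growth factor that drives fibroblasts to make matrix, read 160, 174 and 301 at 14 months, against 97.3, 113 and 138 at 6 months (0.68 ± 0.10, adjusted p = 1.1e-04), without overlap. Postn, periostin of activated fibroblasts, rose by 0.75 ± 0.16 and Timp1, a metalloproteinase inhibitor, by 0.69 ± 0.19. Dcn, decorin, fell by 0.29 ± 0.06. Of 18 fibroblast markers 2 rose and 2 fell.

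The summed signal of 26 cell cycle genes was 4082 and 3945 in hearts 2 and 3 on Q10 at 14 months and 2343 to 2782 in the other 7, against 2417 to 2759 at 6 months. Of the 26 8 rose and none fell, with a median of 0.42 over all diets, 0.22 on control diet, 1.23 on Q10 and 0.04 on QH2. Without the 4 arrays 2 were higher and 1 lower, at a median of 0.27. Of 9 B cell genes 3 rose, with medians of 0.65 on control diet, 3.08 on Q10 and 0.49 on QH2, and without the 4 arrays none was called (median 0.29). Mcm3, of the replicative helicase, had 0.67 ± 0.18, Tk1, thymidine kinase, 1.63 ± 0.46, and Cdk1, the kinase of mitosis, 1.17 ± 0.34, with 2.53 on control diet, 1.28 on Q10 and -0.29 on QH2. Cdk1 and Mcm3 kept their calls without the 4 arrays (adjusted p = 0.035 and 0.045) and Tk1 did not (0.068). Bpgm, the enzyme of red cells that makes bisphosphoglycerate, and Slc4a1, the red cell anion exchanger, had 0.80 ± 0.22 and 1.37 ± 0.41. Slc4a1 was highest, at 260 and 496, in the same 2 hearts on Q10, and was not called without heart 1 on QH2 at 14 months. The 5 erythroid genes had a median of 0.73 over all diets, 0.46 without these 2 hearts on Q10 and 0.66 without the 4 arrays.

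Of 12 complement genes 4 rose and none fell (median 0.26), and the counts were the same without the 4 arrays. Serping1, the inhibitor of the first complement component, read 987, 1069 and 1106 at 14 months, against 792, 884 and 968 at 6 months (0.27 ± 0.05, adjusted p = 6.3e-04), without overlap. Cfb, factor B of the alternative pathway, rose by 1.51 ± 0.37, with 1.38 on control diet, 1.93 on Q10 and 1.23 on QH2. Il33, an alarm cytokine of stromal cells, rose by 0.72 ± 0.17. The MHC class I calls that follow are H2-M3 and H2-K1, by their brightest probe sets. H2-D1, named above among the greatest rises, is not among them. MHC class I genes rose in 2 of 11 and class II genes in 2 of 10, and none of these calls was kept without the 4 arrays. H2-K1 of class I had 0.74 ± 0.22 and 0.24 (adjusted p = 0.45) without them, and Ctss, the protease that readies class II molecules, 0.55 ± 0.16 and 0.36 (0.14). The interferon response list had a median of -0.33 on control diet, 0.62 on Q10 and -0.06 on QH2. Its summed signal was 11970 and 12350 in hearts 2 and 3 on Q10 and 4048 to 8761 in the other 7 at 14 months, against 4582 to 7828 at 6 months. Without those 2 hearts 0 of its 36 genes were called higher and 2 lower over all diets.

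Of 21 genes of senescence and p53 targets 6 rose and 1 fell (median 0.11), counts that were the same without the 4 arrays. Cdkn2b, the p15 inhibitor of the cell cycle, read 19.6, 28.5 and 43.0 at 14 months, against 2.59, 5.87 and 27.4 at 6 months (1.70 ± 0.38, adjusted p = 0.0033), with 1.80 on control diet, 1.24 on Q10 and 2.05 on QH2. The durations overlapped in Cdkn2b, and its values at 6 months are so low that the size of the change depends on the added 1. Trp53inp1 and Phlda3, both induced by p53, rose by 0.42 ± 0.09 and 0.53 ± 0.12, and Mdm2, the ubiquitin ligase of p53, fell by 0.52 ± 0.11. Cdkn1b, the p27 inhibitor, had 0.87 ± 0.12 by its brightest probe set, while its other probe set was called lower.

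Of 14 core clock genes 1 was called, Cry1, a repressor of the clock (0.89 ± 0.29, adjusted p = 0.037), in 9 of the 18 fits that leave out 1 array. Listed genes stand by their brightest probe set, and Nr1d2, named above among the falls, was not among the calls of this list. Arntl (BMAL1) ranged from 3.92 to 155 at 14 months and from 19.1 to 84.2 at 6 months, Dbp from 62.3 to 1030 at 14 months and from 371 to 1374 at 6 months, and Per2 from 14.3 to 98.0 at 14 months and from 32.1 to 88.4 at 6 months. The time of day at which hearts were taken is not given in the sources used here. Of 19 genes of fatty acid synthesis 5 rose and 2 fell, with Srebf1, the sterol regulatory element binding factor, at 154, 184 and 233 at 14 months, against 109, 127 and 156 at 6 months (0.53 ± 0.08, adjusted p = 8.8e-05). In RNA splicing 6 of 28 genes rose and 5 fell. Clk4, a kinase of splicing factors, read 57.6, 72.0 and 84.5 at 14 months, against 86.5, 108 and 127 at 6 months (-0.57 ± 0.10, adjusted p = 3.1e-04).

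**Figure D4:**
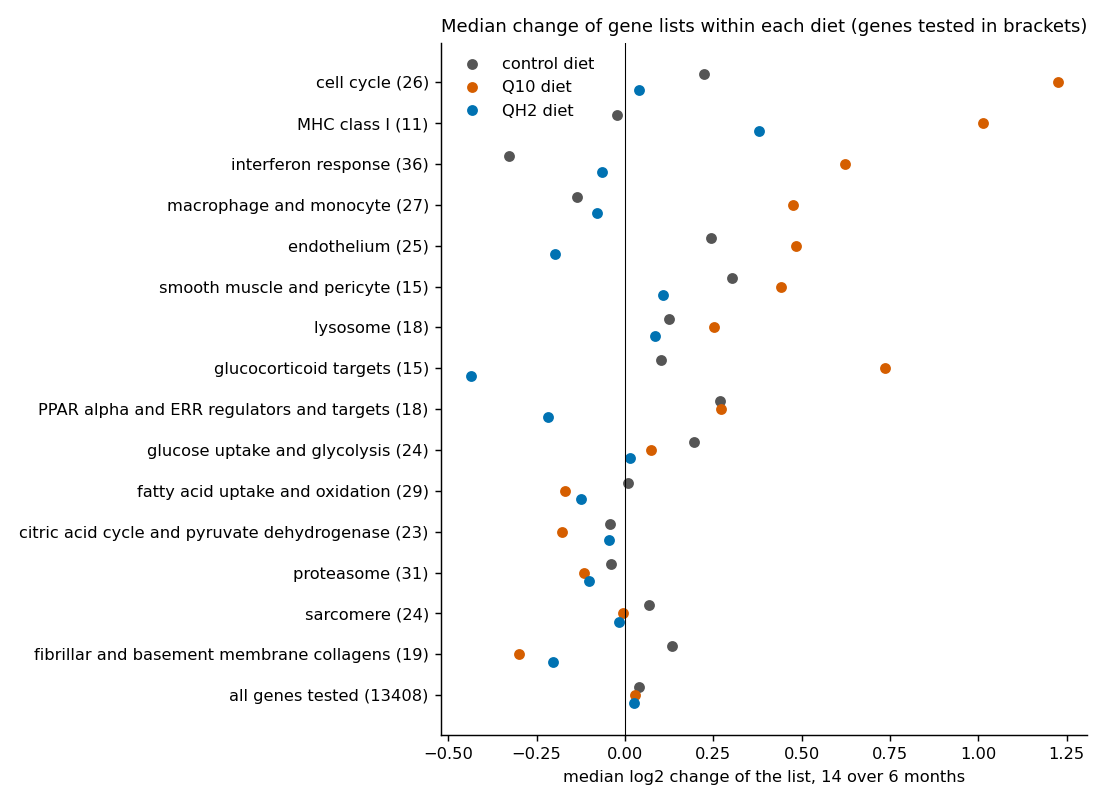
Points are the median log2 change of 14 over 6 months of 15 gene lists and of all 13408 genes within each diet, with the number of genes tested in brackets. Medians on Q10 lie furthest right for cell cycle (1.23), MHC class I (1.01), interferon (0.62) and glucocorticoid targets (0.74), while the medians of all genes lie at 0.04 on control diet, 0.03 on Q10 and 0.02 on QH2.

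Whether the change with duration depended on the diet was tested as an interaction. Q10 against control diet gave 0 calls of 27022 (0.0%) by limma, with 1838 at an unadjusted p under 0.05, and QH2 against control diet gave 0 (0.0%), with 1962. QH2 against Q10 gave 74 (0.274%), 18 more positive and 56 more negative on QH2. These 74 became 1 without hearts 2 and 3 on Q10 at 14 months, 0 without hearts 2 and 3 on QH2 and 0 without the intensity trend, and ranged from 0 to 690 as single arrays were left out. Without a pair of hearts 1 heart of that diet remains at 14 months and takes its spread from the other groups.

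Angptl4, a fasting-induced inhibitor of lipoprotein lipase, read 26.9, 22.3 and 28.3 on QH2 at 14 months, against 205, 67.6 and 46.8 on QH2 at 6 months. On Q10 it read 155, 165 and 86.4 at 14 months, against 15.7, 23.3 and 8.57 at 6 months. The difference of the changes, QH2 minus Q10, was -4.78 ± 0.64 (adjusted p = 0.0090), and no hearts of either diet overlapped between durations, in opposite directions. Pdk4, the kinase that shuts off pyruvate dehydrogenase, read 941, 807 and 447 on QH2 at 14 months, against 4289, 1734 and 1491 at 6 months. On Q10 it read 2622, 2963 and 2234 at 14 months, against 1898, 1865 and 1058 at 6 months (difference -2.41 ± 0.46, adjusted p = 0.037).

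Zbtb16, a glucocorticoid-induced zinc finger protein, read 128, 59.3 and 118 on QH2 at 14 months, against 281, 469 and 395 at 6 months, and on Q10 186, 232 and 131 at 14 months, against 105, 72.1 and 94.9 at 6 months (-2.92 ± 0.42, adjusted p = 0.011). Fam107a, also glucocorticoid-induced, had -3.32 ± 0.54, Lyve1, the hyaluronan receptor of lymphatic endothelium, -1.63 ± 0.25, and P4ha1, a collagen prolyl hydroxylase, -1.32 ± 0.22. Abra, an actin-binding activator of serum response factor signalling, had -1.32 ± 0.27 and Ppargc1a -1.51 ± 0.29.

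The glucocorticoid list had a median change of 0.10 on control diet, 0.74 on Q10 and -0.44 on QH2, and 5 of its 15 genes were called lower in the difference, where 11 of 13408 genes were called higher and 28 lower. The lists were chosen with earlier results of these data known, and calls in the difference rest on the arrays that stood apart, as given above. Members of the glucocorticoid list chosen after their values were seen were Fkbp5, a co-chaperone of the receptor (-2.21 ± 0.46, adjusted p = 0.046), the metallothioneins Mt1 (-1.21 ± 0.24) and Mt2 (-1.76 ± 0.33), and Cebpd (-1.82 ± 0.36). Tsc22d3 (GILZ), another, had -0.98 ± 0.23 (adjusted p = 0.091) by its brightest probe set and was called by a second one, at -1.14 ± 0.22 (adjusted p = 0.037). At 6 months Fkbp5 was already higher on QH2 than on Q10: it read 94.8, 159 and 142 on QH2 and 56.4, 50.6 and 58.1 on Q10. Food was available at all times, and the part of the time of day in these values was not tested.

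Against control diet the smallest p belonged to Pdk4 (-2.66 ± 0.46), Abra (-1.66 ± 0.27), P4ha1 (-1.27 ± 0.22) and Angptl4 (-3.32 ± 0.64) for QH2, all with adjusted p between 0.11 and 0.26. For Q10 it belonged to Cit, citron kinase of cell division (3.40 ± 0.66), Pde3b, a cyclic nucleotide phosphodiesterase (1.38 ± 0.28), Ctsc, a protease of leukocyte granules (1.22 ± 0.24), and Npy1r, a receptor of neuropeptide Y (3.23 ± 0.70), all at an adjusted p of 0.63. Cit and Npy1r read at most 2.49 on Q10 at 6 months, where the size of a change depends on the added 1.

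The atrial signal of hearts 2 and 3 on QH2 moved with large changes within that diet. Myl7, the atrial myosin light chain, read 15.9, 8174 and 1658 on QH2 at 14 months, against 6.37, 0.77 and 3.93 at 6 months (adjusted p = 0.014 within QH2). Sln, sarcolipin of the atrial calcium pump, read 3.92, 4598 and 742 on QH2 at 14 months, against 1.85, 7.65 and 1.07 at 6 months (adjusted p = 0.043). The values at 6 months are so low that the size of these changes depends on the added 1, and no fold is given. Myl4, another atrial light chain, chosen after its values were seen, read 5755 and 1677 in the same 2 hearts, and was at most 142 in every other heart. Within QH2, 5 of 14 atrial markers rose and 1 fell, beside 178 and 112 of all 13408 genes. The 2 hearts were set apart by the sum of these same markers, so this count is not separate evidence. Ucp1 of brown fat was at 151 in heart 2 on QH2 and at most 4.40 in every other heart.

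The duration change in heart was last set against its mean in liver, kidney and brain, by a fit of all 72 arrays. No label says whether the tissues came from the same mice, and the fit takes the arrays as independent. It differed in 2179 probe sets (8.06%), 1077 of them more positive and 1102 more negative in heart. Pik3r1 had -1.83 in heart beside -1.01 in liver, -1.84 in kidney and 0.68 in brain (difference -1.11, adjusted p = 4.5e-05). Laptm4a had -1.07 in heart beside -0.63, -0.89 and 0.68 in liver, kidney and brain (difference -0.80, adjusted p = 5.0e-09). Spop and Gja1 differed by -1.12 and -1.51, Nebl, a heart gene by its level, by -1.23, and Hadh by -0.44. More positive in heart were Vgll2 (difference 1.91, adjusted p = 0.0060), Cfb (1.36, 0.0078), Egln3 (1.17, 0.025), Atg7 (0.82, 1.9e-06), Cox6a1 (0.37, 1.1e-06), Tpi1 (0.27, 8.9e-04) and AY036118 (0.70, 1.5e-08). Rtn4, with -1.81 in heart, -2.12 in liver, -2.45 in kidney and -0.25 in brain, did not pass (difference -0.20, adjusted p = 0.32). Neither did Cd79a, which had 2.01 in heart, 2.28 in liver, 3.38 in kidney and -0.01 in brain (difference 0.13, adjusted p = 0.93).

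**Figure D5:**
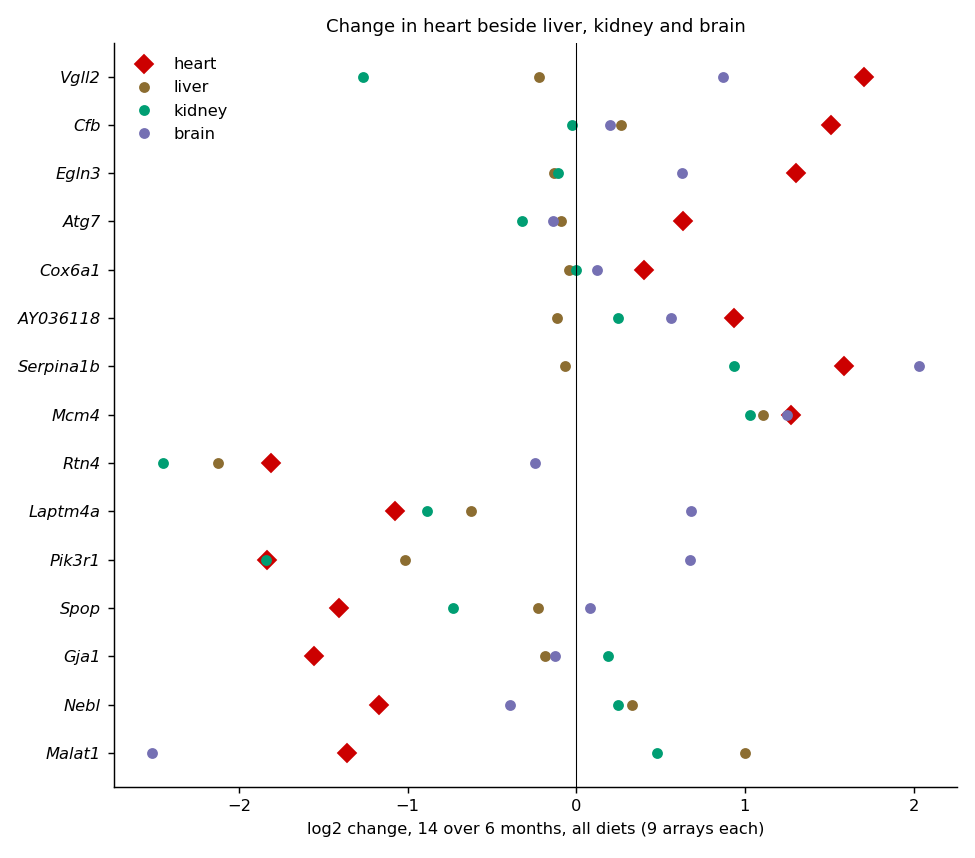
Log2 changes of 14 over 6 months over all diets for 15 genes, with heart as diamonds and liver, kidney and brain as circles, 9 arrays at each duration in each tissue. Heart lies to the right of all other tissues for Vgll2, Cfb, Egln3, Atg7, Cox6a1 and AY036118 and within their range for Rtn4 (-1.81 in heart, -2.45 to -0.25 elsewhere).

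Probe sets of 1 gene did not always move together. Of 6074 genes with more than 1 tested probe set, 721 had more than 1 called in the heart. In 305 of these every called probe set was lower, in 196 every one was higher, and in 220 (30.5%) the called probe sets went in both directions.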

How the data were processed

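RNA of 18 hearts was measured on Affymetrix Mouse 430 2.0 arrays with 45101 probe sets. The deposited values are intensities, 1 linear signal per probe set. The submitters' processing notes name GCOS, whose version was not given in the sources used here. Because deposited levels differed between arrays, the 18 were quantile normalised, 1 was added and log2 taken. The 64 control probe sets were left out, and the 27022 whose mean lay above the 40th percentile were tested with limma 3.58.1 in R 4.3.3, on diet plus duration for all diets and on 6 group means for single diets and interactions, with an intensity trend. Adjusted p are Benjamini and Hochberg over all tested probe sets, and a probe set is called under 0.05. The comparison with other tissues fitted 72 arrays in 24 groups. The median half-width of the 95% interval was 0.32 log2 over all diets and 0.54 within a diet.

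Gene symbols came with the platform table, 34945 probe sets having 1 symbol, 932 several and 9160 none. Symbols were checked through Entrez numbers for 34741. Named genes are up to 15 of the greatest changes in each direction, the called members of each list with the smallest p, a fixed set of heart genes and the smallest p of each diet and interaction contrast. Genes taken by change or p stand by that probe set, others by the brightest. From these the text mostly names genes whose probe sets agree and whose calls hold as arrays are left out. The members, lists and tests were chosen with earlier results of these data known. Steps were tested on simulated data. Hearts with the same replicate number did not deviate together (correlations of -0.06 to 0.06 over 45 pairs), so no pairing was used. The design text has 3 mice per group, but no label names single animals.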

Additional observations from a re-analysis of the deposited data

Results flagged for a closer look

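In each of 330 groups of 9 hearts the highest and the lowest array were set against the rest by Dixon's test, and in 23 (6.97%) 1 array lay apart. Chance alone marks about 1 group in 20. At 14 months heart 2 on Q10 stood apart for Cox6a1 at 3137 (highest) and Tgfb1 at 301 (highest). At 14 months heart 3 on Q10 stood apart for Eno3 at 4613 (lowest) and Ppara at 256 (lowest). At 14 months heart 2 on QH2 stood apart for Gpx3 at 3773 (highest), Dbp at 62.3 (lowest), Ucp1 at 151 (highest) and Zbtb16 at 59.3 (lowest). At 14 months heart 3 on QH2 stood apart for Tnnt2 at 15290 (highest). At 14 months heart 3 on control diet stood apart for Becn1 at 420 (lowest). Heart 1 on Q10 at 6 months did so for Hadhb at 8376 (lowest). Heart 2 on Q10 at 6 months did so for H2-K1 at 277 (highest). Heart 3 on Q10 at 6 months did so for Sod1 at 1740 (highest). Heart 1 on QH2 at 6 months did so for Dbp at 371 (lowest) and Nebl at 202 (lowest). Heart 1 on control diet at 6 months did so for Rgs5 at 3042 (lowest) and Prdx3 at 2863 (highest). Heart 2 on control diet at 6 months did so for S100a8 at 0.24 (lowest), Kcnk3 at 491 (lowest), Pfkl at 321 (lowest), Coq8a at 2491 (lowest) and Rpsa at 2438 (lowest). Heart 3 on control diet at 6 months did so for Trim63 at 1205 (highest). 

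The change with duration on QH2 differed from that on Q10, by the interaction in limma, for Lyve1 (-1.63), Ppargc1a (-1.51), Pdk4 (-2.41), Angptl4 (-4.78), Cit (-3.54), Abra (-1.32), P4ha1 (-1.32), Zbtb16 (-2.92), Fam107a (-3.32), Fkbp5 (-2.21), Mt2 (-1.76), Mt1 (-1.21) and Cebpd (-1.82), each value being the log2 change on QH2 minus that on Q10. Over all probe sets 1 was called without hearts 2 and 3 on Q10 at 14 months, and 0 without hearts 2 and 3 on QH2, fits in which 1 heart of that diet remains at 14 months.

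The change in heart differed from the mean change of liver, kidney and brain. It was more positive in heart for Vgll2 (1.91), Egln3 (1.17), Esrra (0.37), Tpi1 (0.27), Pfkl (0.42), Suclg1 (0.25), Sdhc (0.30), Cycs (0.25), Atp5pb (0.27), Cox6a1 (0.37), Rpsa (0.32), Map1lc3a (0.35), Atg7 (0.82), Cfb (1.36), Tk1 (1.60), Egln3 (0.56), Ndrg1 (0.72), Egfl7 (0.61), Mylk (0.51), Bpgm (0.56), Sln (2.13), AY036118 (0.70), Npy1r (1.16) and Dkk3 (1.67), where Egln3 stands with both its probe sets. It was more negative for Pik3r1 (-1.11), Serinc1 (-0.72), Gja1 (-1.51), Spop (-1.12), Malat1 (-1.01), Gtpbp2 (-0.94), Hadh (-0.44), Psmc6 (-0.26), Malat1 (-1.60), Clk4 (-0.42), Laptm4a (-0.80) and Nebl (-1.23), where Malat1 stands with a pair of probe sets. Each value is a difference of log2 changes, heart minus the others. Sln and Dkk3 (chosen after its values were seen) were highest in hearts 2 and 3 on QH2 at 14 months.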

How the results depend on the processing

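Without pairing evidence, the replicate number was tried as a block (replicate block), which gave 4502 calls over all diets, 1 in place of 0 for QH2 minus control and 38 in place of 74 for QH2 minus Q10. On values as deposited 20961 probe sets were called over all diets, 11788 on control diet, 17420 on Q10, 13783 on QH2, 8952 within every diet and 8167 in heart minus the other tissues, nearly all higher. Relative to the median change of all probe sets, median scaling turned Tnnt2 (-0.18) and Pln (-0.19), as did the deposited values (-0.16 and -0.16). The median taken off was -0.04 with median scaling and 0.80 on the deposited values. Median scaling gave 37.3% higher calls over all diets (49.4% after the quantile step), 42.4% (60.7%) on QH2 and 36.8% (50%) within every diet. The deposited values gave 5.36% (24.3%) for QH2 minus Q10. The cause was not tested. Without the intensity trend there were 88 calls on control diet, 1794 on Q10, 147 on QH2, 21 within every diet and 0 for QH2 minus Q10. Array weights gave 869 on control diet and 249 for QH2 minus Q10, and the Actb ratio as a covariate 35. The 60th percentile filter gave 208 within every diet, and fits of each diet's arrays alone 109 on QH2 and 39 within every diet. Settings added after seeing the data left out arrays at 14 months, and so leave 1 heart in a diet, which is assumed to vary like the other groups. Without hearts 2 and 3 on Q10 there were 165 calls on Q10, 1 for QH2 minus Q10 and 52 within every diet. Without hearts 2 and 3 on QH2 there were 4 for QH2 minus control, 0 for QH2 minus Q10 and 282 within every diet (57 higher and 225 lower). Without all 4 there were 772 on Q10, 10 for QH2 minus control, 4 for QH2 minus Q10 and 277 within every diet. Heart minus liver gave 3480 and heart minus brain 4024. Leaving out 1 array at a time gave 3966 to 5069 over all diets, 92 to 370 on control diet, 1288 to 3194 on Q10, 227 to 692 on QH2, 0 to 87 for Q10 minus control (87 without heart 1 on Q10 at 14 months), 0 to 94 for QH2 minus control (94 without heart 1 on QH2), 0 to 690 for QH2 minus Q10 and 36 to 149 within every diet. Of 127 named probe sets called over all diets, 120 were called in each of these fits. The text mostly names genes whose calls hold in such fits, so this count does not measure how stable calls are in general. Relative to the median change, 116 stayed called in the same direction with median scaling and 86 on the deposited values, and 2 turned in each setting. Of 53 named probe sets called lower, 15 were below 0 on the deposited values before the median change was taken off. The number of arrays limits the precision.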
